A study of Mus musculus with 12 samples.

Results

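The 42 protein-coding mouse genes of 6 amino acid transporter groups were followed in RNA-seq of D2A1 and D2.OR, a pair of mouse mammary tumor cell lines. They were chosen by symbol alone, as every protein-coding gene of the Slc1a, Slc7a, Slc36a, Slc38a and Slc43a families together with Slc3a1 and Slc3a2, and make 42 of the 52550 genes in the files (7 Slc1a, 2 Slc3a, 15 Slc7a, 4 Slc36a, 11 Slc38a and 3 Slc43a genes). No measured value entered the choice. Both lines come from tumors of D2 hyperplastic alveolar nodules, each from a different mouse, so each line stands for 1 tumor. D2A1 is the proliferative line of the pair and D2.OR the line that stays dormant in 3D. Each line was cultured for a week on plastic (2D) or on top of growth-factor-reduced Matrigel, a basement membrane gel (3D), giving 4 groups of 3 replicates (12 libraries). No library carries a transgene or a drug treatment in its labels. The replicate number is also the batch number, and each batch was run in its own sequencing lane. Each library was made from a pool of wells, and p-values measure the spread between these pools.

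Amino acids cross membranes on carriers that differ in what they take and in what drives them. Slc3a2 (the CD98 or 4F2 heavy chain) is a single-pass glycoprotein that holds several Slc7a light chains at the cell surface. Among these light chains, Slc7a5 (LAT1) exchanges large neutral amino acids such as leucine, Slc7a6 and Slc7a7 (the y+L carriers) exchange cationic for neutral amino acids, and Slc7a11 (xCT) imports cystine in exchange for glutamate and so feeds glutathione synthesis. The Slc38a (SNAT) and Slc1a genes encode sodium-coupled carriers of glutamine, alanine and glutamate. Of the Slc36a (PAT) carriers, Slc36a1 and Slc36a2 move small amino acids with protons. Slc43a1 and Slc43a2 (LAT3 and LAT4) carry large neutral amino acids without sodium. In mammary tumor cells these carriers are known for supplying leucine, glutamine and cystine to growing cells, and several are targets of the stress factor ATF4.

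Library totals ranged from 47589613 to 73325057 expected counts (median 61747090). Of the known cell type markers, leukocyte genes other than Cd68 stayed near 0 (Ptprc and Adgre1 were under 0.1 TPM in every library), and summed endothelial markers reached at most 0.42 TPM (TPM is a transcript level scaled for gene length and library size). Epithelial markers separated the lines. D2.OR had Epcam, Krt8, Krt18, Krt14 and Cdh1 at a mean of at least 1 TPM in both cultures, whereas D2A1 had only Krt8 and Krt18 at that level. Their sum was 1165 to 1716 TPM in D2.OR 2D and 422 to 877 in D2.OR 3D. In D2A1 it was 205 to 297 TPM in 2D and 94.0 to 221 in 3D. The D2.OR sums did not overlap between cultures, and the part of this shift in the 3D comparisons was not tested. Summed mesenchymal markers were also higher in D2.OR, at 4969 to 6092 TPM against 2966 to 3516 in 2D and 3589 to 6543 against 1634 to 3470 in 3D. The labelled mammary origin of D2A1 rests on Krt8 and Krt18 among these 7 markers. Batch 1 stood apart. In the same fit as the comparisons between groups, 4 of the 28 tested transporter genes differed between batches 2 and 1 (background 6.78% of all tested genes) and 5 between batches 3 and 1 (8.08%). Slc7a11 (log2 fold changes of 1.55 and 1.82) and Slc43a3 (3.52 and 3.04) were higher in batches 2 and 3 than in batch 1, and Slc38a7 was lower in both (-0.55 and -0.58). Between batches 3 and 2 edgeR called no gene at all (background 0%), and none of the 28 had an unadjusted p under 0.05.

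The promoters of 5 of these genes are shown. Those of Slc7a11, Slc7a7 and Slc1a4 hold a stress element and belong to genes called between the lines in at least 1 culture, and those of Slc43a1 and Slc38a2 belong to a gene at or near 0 in D2A1 and to one at similar levels in both lines. The windows come from RefSeq on GRCm38.p6 and are written 5′ to 3′ from 160 bases before the annotated start to its first 20 bases. Capitals mark matches on either strand to the C/EBP-ATF response element read by ATF4 (TGATGNAA), the antioxidant response element read by NRF2 (TGACNNNGC) and the E-box (CACGTG). Of these, TGATGNAA stands in the Slc7a11, Slc1a4 and Slc7a7 stretches, TGACNNNGC in those of Slc43a1 and Slc38a2, and CACGTG in that of Slc43a1.
Slc7a11, chr3:50443594-50443773, minus strand: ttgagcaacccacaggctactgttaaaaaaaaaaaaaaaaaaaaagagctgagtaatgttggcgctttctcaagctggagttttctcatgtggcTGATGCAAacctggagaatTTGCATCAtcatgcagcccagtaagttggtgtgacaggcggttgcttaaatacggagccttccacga
Slc7a7, chr14:54417925-54418104, minus strand: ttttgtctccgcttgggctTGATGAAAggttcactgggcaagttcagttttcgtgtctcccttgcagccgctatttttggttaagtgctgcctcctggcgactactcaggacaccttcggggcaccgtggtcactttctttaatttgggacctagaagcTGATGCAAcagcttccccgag
Slc1a4, chr11:20332694-20332873, minus strand: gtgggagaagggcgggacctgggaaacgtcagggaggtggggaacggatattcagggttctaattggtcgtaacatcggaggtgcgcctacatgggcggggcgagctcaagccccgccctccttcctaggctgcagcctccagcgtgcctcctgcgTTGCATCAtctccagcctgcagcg
Slc38a2, chr15:96699709-96699888, minus strand: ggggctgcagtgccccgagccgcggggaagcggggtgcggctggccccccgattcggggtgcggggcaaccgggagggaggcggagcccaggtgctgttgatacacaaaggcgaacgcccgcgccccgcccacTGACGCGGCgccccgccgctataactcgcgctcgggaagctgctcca
Slc43a1, chr2:84840163-84840342, plus strand: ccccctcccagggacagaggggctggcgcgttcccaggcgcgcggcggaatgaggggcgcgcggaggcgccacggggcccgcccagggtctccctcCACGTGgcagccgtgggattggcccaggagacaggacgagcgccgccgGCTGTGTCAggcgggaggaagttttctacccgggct
A whole window holds 250 bases before and 50 after a start, and 31 of the 42 genes had at least 1 window. TGATGNAA was found in 3 of the 31 (Slc7a11, Slc1a4 and Slc7a7) and in 3.97% of all 32851 windows, TGACNNNGC in 5 (Slc43a1, Slc7a1, Slc7a6, Slc36a1 and Slc38a2) and in 12.4% of windows, and CACGTG in 7 (Slc43a1, Slc36a1, Slc38a7, Slc1a7, Slc7a14, Slc1a6 and Slc38a5) and in 7.15%. In Slc7a11 the 2 matches lie in opposite orientation at -66 and -47 from the start, and in the Slc7a7 window shown, 1 of 5 for that gene of which 2 hold the motif, matches begin at -141 and -1. The Slc43a1 start used here lies inside the longer gene model of the deposited annotation. These matches are letters in a window, and binding was not measured.

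At the level of abundance the genes fell into 3 classes. A mean of at least 10 TPM in every group was reached by 11 genes (Slc3a2, Slc7a5, Slc38a2, Slc7a11, Slc7a6, Slc38a10, Slc1a5, Slc7a1, Slc1a4, Slc38a7 and Slc38a6). In 21 genes the mean stayed under 1 TPM in every group, and 10 lay between. Slc1a6, Slc7a10, Slc7a12 and Slc7a13 had no count in any library, and 10 genes, these 4 included, had at most 3 counts in every library (the others were Slc7a8, Slc7a14, Slc7a15, Slc38a5, Slc38a8 and Slc38a11). Slc1a1, Slc1a3, Slc7a9 and Slc36a3 were also too low to be tested. The heavy chain Slc3a2 alone made up 33.9% to 39.0% of the summed TPM of the 42 genes in the group means. That sum was 1466 ± 344 TPM in D2A1 2D, 1248 ± 110 in D2A1 3D, 1341 ± 36.5 in D2.OR 2D and 1463 ± 79.0 in D2.OR 3D (mean ± SD, n = 3 each). The 3 D2.OR 3D libraries (1391 to 1547 TPM) lay above those of D2A1 3D (1133 to 1351) and D2.OR 2D (1305 to 1378), the D2A1 2D libraries spanned 1135 to 1821, and no test was run on these sums. In bulk RNA, fewer cells that express a gene and less of its RNA in each cell cannot be told apart.

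**Figure D1:**
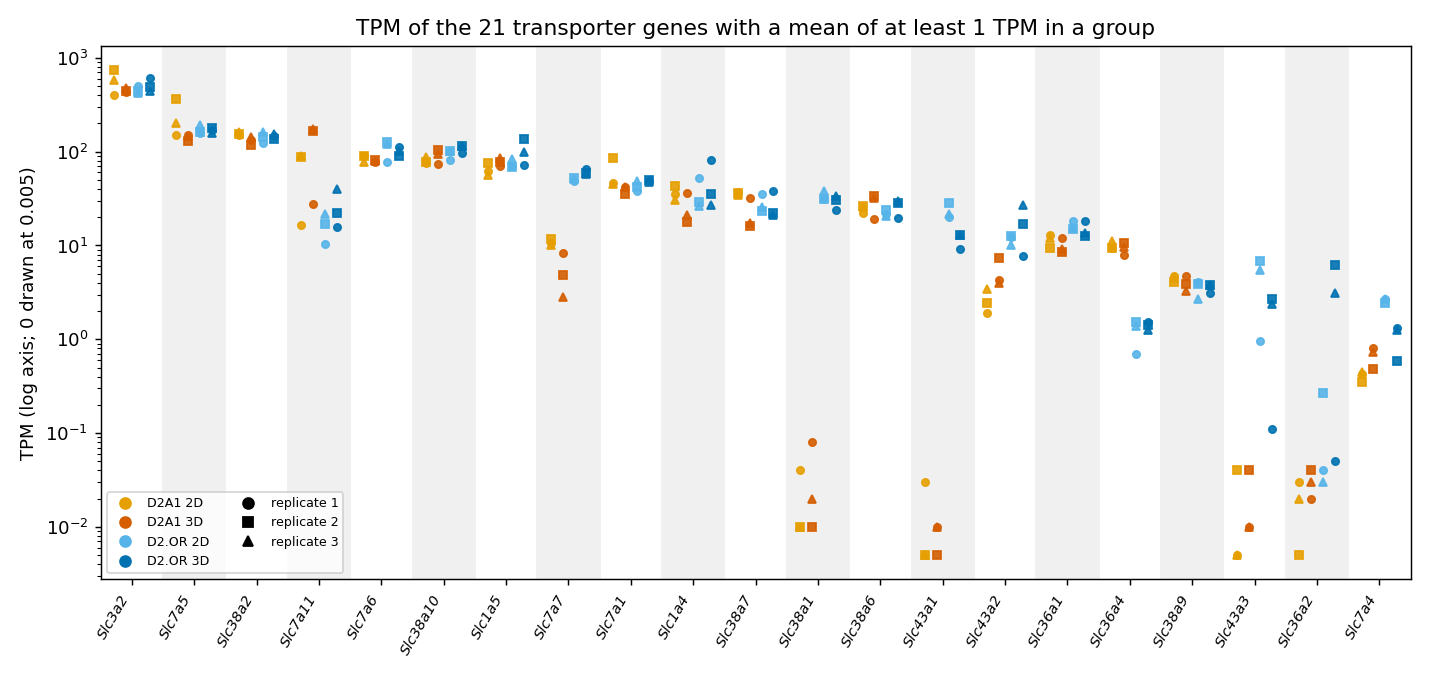
TPM of the 21 transporter genes that reached a group mean of at least 1 TPM, on a log axis, with 1 point per library, color for the group and shape for the replicate. Slc3a2 sits highest throughout, while Slc38a1, Slc43a1 and Slc43a3 are at or near 0 in all D2A1 libraries and above 0.1 TPM in all D2.OR libraries.

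The question of how the lines differ was asked in 2D and in 3D, as log2 fold changes of D2.OR against D2A1 tested with edgeR and adjusted over 16823 genes. Of the 42 genes, 28 passed the filter on low counts, and 5 of these (Slc38a1, Slc38a3, Slc43a1, Slc43a3 and Slc36a2) would have passed on the D2.OR libraries but not on those of D2A1, so the filter favours a difference between lines for them and counts over the 28 are a description. In 2D, 14 of the 28 were called (10 higher and 4 lower in D2.OR), which is 50% against a background of 49.8% of all tested genes (25.4% higher and 24.4% lower). In 3D, 13 were called (11 higher and 2 lower), or 46.4% against a background of 53.8% (27.7% higher and 26.1% lower). Both shares lie near the background, and nothing is read from them about transporter genes. The median log2 fold change of the 28 was 0.33 in 2D and 0.56 in 3D, beside 0.00 for all tested genes in both cultures. These medians and the counts of higher genes include the 5 genes named above, whose fitted changes were positive in both cultures. The filter thus favours positive medians, and nothing is read from them. Of the other protein-coding Slc genes, 60 were higher and 57 lower among 190 tested in 2D, and 65 higher and 45 lower in 3D.

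Called in both cultures, in the same direction, were 9 genes. Higher in D2.OR were Slc38a1, Slc38a3, Slc43a1, Slc43a2, Slc43a3, Slc7a7 and Slc36a1, and lower were Slc36a4 and Slc7a11. The share of all tested genes called in both cultures was not computed, and 49.8% were called in 2D and 53.8% in 3D. Slc38a1, Slc38a3, Slc43a1 and Slc43a3 are among the genes that the filter favours. The count of 9 is thus a description, and nothing is read from it. The 3 genes with the highest mean TPM in every group, Slc3a2, Slc7a5 and Slc38a2, were called in neither culture, and neither were Slc1a5 and Slc7a1. The similarly abundant Slc38a10 and Slc7a6 were called in 2D.

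**Figure D2:**
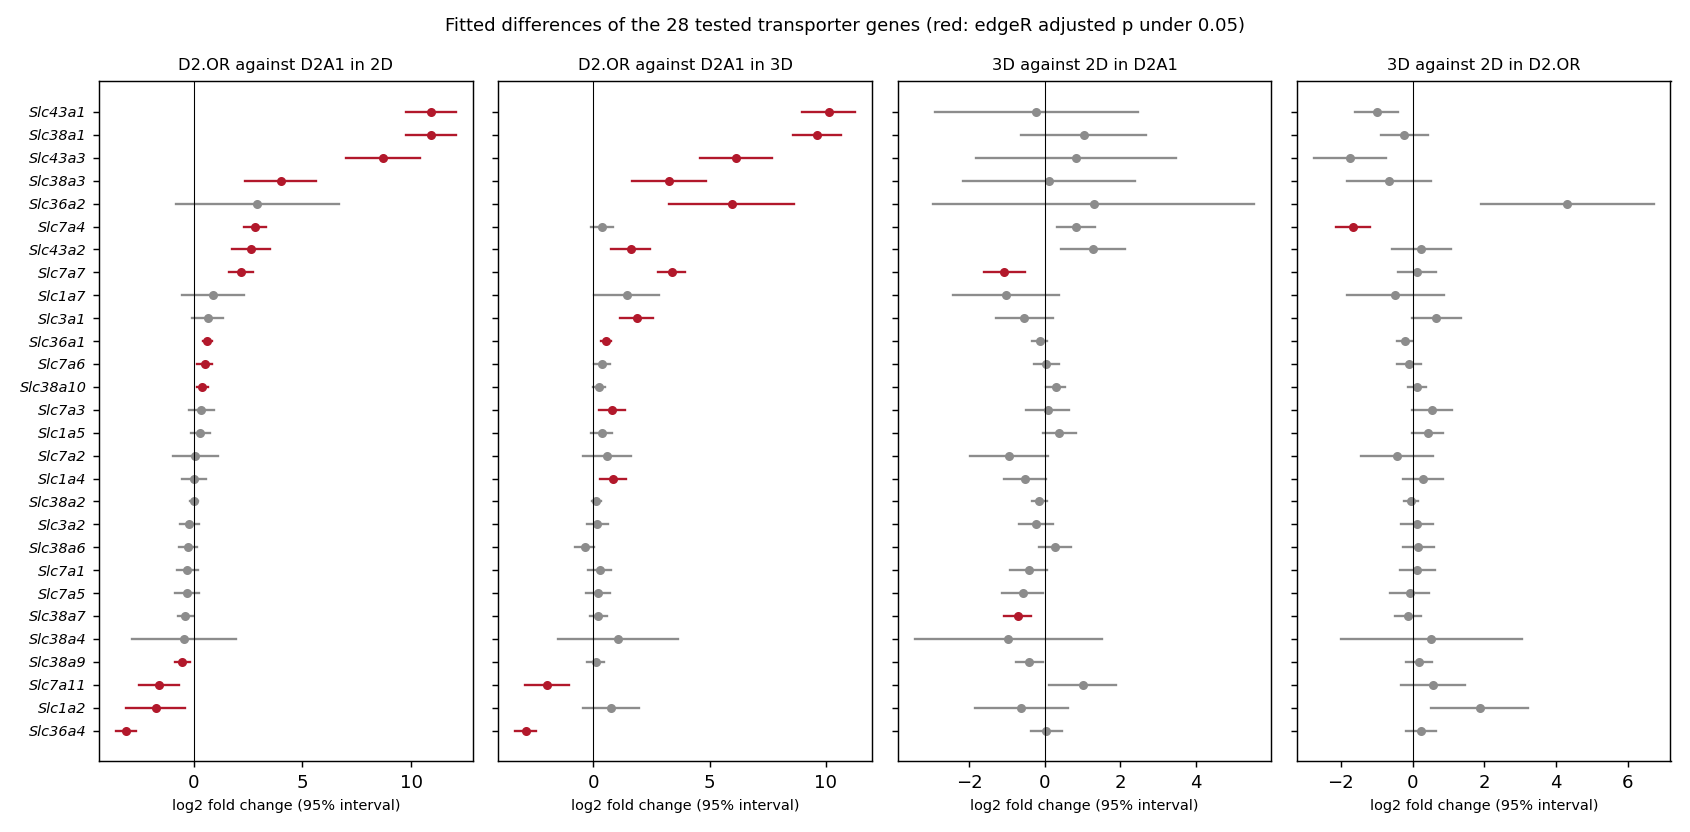
Log2 fold changes of the 28 tested genes with 95% intervals (bars) from edgeR, in 4 panels for the line comparison in 2D and 3D and for 3D against 2D in each line, with red for an adjusted p under 0.05. Slc43a1 and Slc38a1 stand at the right of both line panels, where the fitted values of genes near 0 in D2A1 depend on the prior count, and the 2 culture panels hold 3 red points in all.

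Among the heterodimeric carriers, the heavy chain and the most abundant light chain were at similar levels in the lines. Slc3a2 measured 404, 740 and 587 TPM in D2A1 2D, 432, 440 and 482 in D2A1 3D, 495, 441 and 425 in D2.OR 2D, and 612, 486 and 439 in D2.OR 3D. The leucine exchanger Slc7a5 measured 152, 365 and 202 TPM in D2A1 2D, 149, 131 and 148 in D2A1 3D, 156, 161 and 192 in D2.OR 2D, and 170, 178 and 157 in D2.OR 3D. For both genes D2A1 2D replicate 2 was the highest of all 12 libraries, and the lines overlapped in both cultures for Slc3a2 but in 2D alone for Slc7a5, whose 3 D2.OR 3D libraries lay above the 3 of D2A1 3D. The difference between lines did not pass for Slc3a2 (2D, log2 fold change -0.20, 95% interval -0.65 to 0.26, edgeR adjusted p = 0.448) or for Slc7a5 (2D, -0.31, -0.85 to 0.23, adjusted p = 0.308, and 3D, 0.19, -0.34 to 0.73, adjusted p = 0.51), and without replicate 1 Slc3a2 was called in 2D. In 2D the log2 difference by batch was 0.42, -0.60 and -0.33 for Slc3a2 and 0.18, -1.05 and 0.06 for Slc7a5, so neither had 1 direction in all batches. The summed TPM of Slc7a5, Slc7a6, Slc7a7 and Slc7a11 relative to Slc3a2 was 0.687 ± 0.055 in D2A1 2D, 0.772 ± 0.142 in D2A1 3D, 0.771 ± 0.162 in D2.OR 2D and 0.709 ± 0.11 in D2.OR 3D (mean ± SD, n = 3).

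What differed was the make-up of the light chains. Slc7a7 (chr14:54369442-54417780, minus strand), the y+L carrier of epithelia that exports arginine and lysine, was at 10.8, 11.8 and 10.1 TPM in D2A1 2D and at 48.9, 52.3 and 51.5 in D2.OR 2D. In 3D it was at 8.26, 4.85 and 2.85 TPM in D2A1 and at 65.5, 59.6 and 58.4 in D2.OR. All D2.OR libraries lay above all D2A1 libraries. The log2 fold change was 2.16 (SE 0.24, edgeR adjusted p = 0.000118) in 2D and 3.36 (SE 0.26, adjusted p = 1.17e-05) in 3D. As a share of the summed light chain TPM, Slc7a7 made up 2.93% ± 0.97 in D2A1 2D and 1.71% ± 1.28 in D2A1 3D, against 14.9% ± 1.7 in D2.OR 2D and 17.1% ± 0.8 in D2.OR 3D (SD, n = 3). Its close relative Slc7a6 was at 89.5, 89.6 and 77.2 TPM in D2A1 2D, 77.1, 82.5 and 78.9 in D2A1 3D, 77.7, 127 and 121 in D2.OR 2D, and 113, 90.6 and 101 in D2.OR 3D. The lines overlapped in 2D and were apart in 3D, but the test passed in 2D and not in 3D (0.36, adjusted p = 0.062). In 3D it passed with DESeq2, with DESeq2 size factors in edgeR, with at least 10 counts in every library, with the 3D libraries alone and without D2.OR 2D replicate 1. The 2D log2 fold change was 0.50 (SE 0.15, adjusted p = 0.0201). That call was lost without replicate 2 (adjusted p = 0.184) and without replicate 3 (0.194), without either of these in 1 line of the 2D cultures alone (0.0611 to 0.102), with library totals in place of TMM (0.0761), with the 2D libraries alone (0.0614) and on TPM with limma (0.166 and 0.16).

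Slc7a11 (xCT) ran the other way. Its levels were 16.5, 88.5 and 90.0 TPM in D2A1 2D, 27.9, 164 and 174 in D2A1 3D, 10.5, 17.2 and 21.5 in D2.OR 2D, and 15.9, 22.0 and 40.1 in D2.OR 3D. Replicate 1 was the lowest library of each group, and D2A1 replicate 1 fell within the D2.OR range in both cultures. Taken batch by batch (1, 2, 3), the log2 difference between lines was -0.53, -2.24 and -2.04 in 2D, and -0.84, -2.94 and -2.16 in 3D. The fitted log2 fold change was -1.59 (SE 0.41, edgeR adjusted p = 0.0106) in 2D and -2.01 (SE 0.41, adjusted p = 0.00313) in 3D. In 2D the call was lost without the batch block (adjusted p = 0.0622), without replicate 2 (0.0993) and without replicate 3 (0.125), as well as without D2.OR 2D replicate 2 (0.0584) or replicate 3 (0.0537), and in 3D without replicate 3 (0.0533). Slc7a11 made up 15.3% ± 8.8 of the light chain TPM in D2A1 2D and 32.2% ± 18.7 in D2A1 3D, against 4.64% ± 1.01 and 7.29% ± 3.55 in the D2.OR groups.

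**Figure D3:**
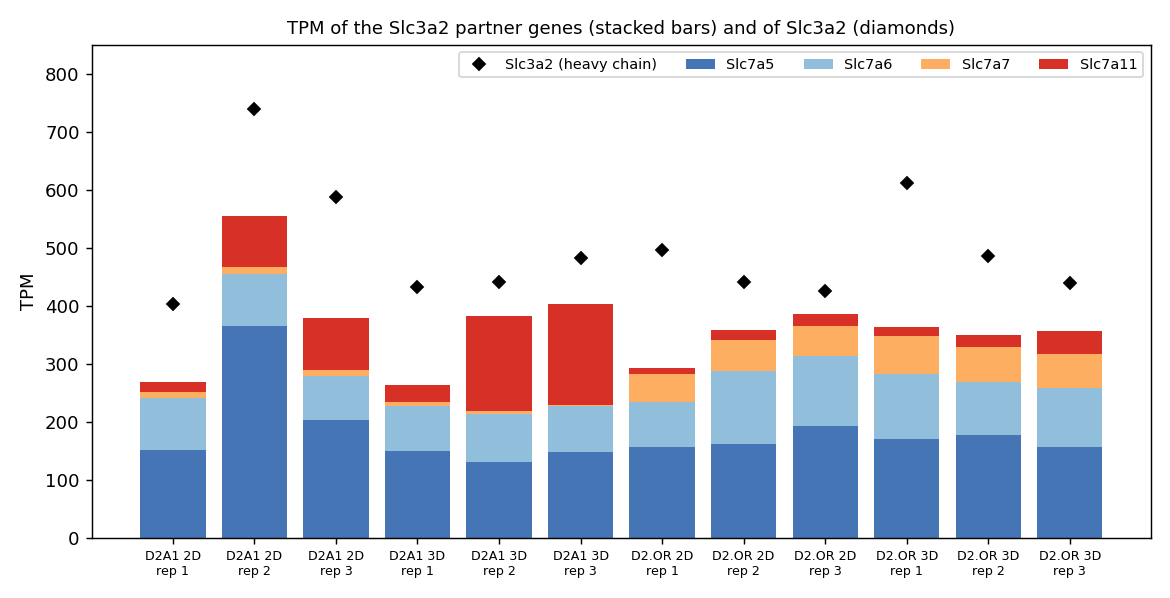
TPM of Slc7a5, Slc7a6, Slc7a7 and Slc7a11 stacked for each of the 12 libraries, with Slc3a2 as a diamond. The Slc7a7 segment is widest in the 6 D2.OR libraries and the Slc7a11 segment in replicates 2 and 3 of D2A1, while the diamonds lie above the stacks in every library.

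The remaining light chains were scarcely detected. Slc7a8 (LAT2) had at most 3 counts in a library and Slc7a9, the b0,+ light chain, at most 5. Slc3a1, the second heavy chain and the partner of Slc7a9, was under 1 TPM throughout, at 0.21, 0.08 and 0.21 TPM in D2A1 3D and 0.88, 0.43 and 0.55 in D2.OR 3D. These groups did not overlap (log2 fold change 1.85, SE 0.32, edgeR adjusted p = 0.0012), while the 2D difference did not pass (0.64, adjusted p = 0.128).

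The cationic carriers, which import arginine and lysine, were represented mainly by Slc7a1 (CAT1). It was at 46.1, 84.7 and 44.9 TPM in D2A1 2D, 42.1, 35.3 and 42.5 in D2A1 3D, 37.7, 42.3 and 48.4 in D2.OR 2D, and 48.2, 49.7 and 47.2 in D2.OR 3D. Again D2A1 2D replicate 2 was highest. The lines overlapped in 2D and were apart in 3D, and the difference did not pass in 2D (log2 fold change -0.29, 95% interval -0.78 to 0.19, edgeR adjusted p = 0.288) or in 3D (0.27, -0.22 to 0.75, adjusted p = 0.317), although it passed in a fit of the 3D libraries alone. Slc7a2 and Slc7a3 stayed under 1.2 TPM. Slc7a3 was called in 3D (log2 fold change 0.81, SE 0.25, adjusted p = 0.0202), a call lost without each of the 3 replicates in turn (adjusted p from 0.0692 to 0.164) and without replicate 1 or 2 of D2A1 3D or any D2.OR 3D library alone. Slc7a4, a relative of these carriers whose own transport activity is not established, was at 0.43, 0.35 and 0.45 TPM in D2A1 2D and at 2.66, 2.43 and 2.66 in D2.OR 2D. In 3D its levels were 0.80, 0.48 and 0.73 TPM in D2A1 and 1.32, 0.58 and 1.25 in D2.OR. The lines were thus apart in 2D (log2 fold change 2.83, SE 0.23, adjusted p = 1.72e-05) and overlapped in 3D (0.36, 95% interval -0.13 to 0.84, adjusted p = 0.186).

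In the Slc38a family 2 neighbours on chromosome 15 contrasted. Slc38a1 (SNAT1, chr15:96571418-96642913, minus strand), a sodium-coupled glutamine importer, was at 0.04, 0.01 and 0.01 TPM in D2A1 2D and at 31.6, 31.3 and 38 in D2.OR 2D. In 3D it was at 0.08, 0.01 and 0.02 TPM in D2A1 and at 23.7, 30.8 and 34.1 in D2.OR. In counts, D2A1 libraries held 3 to 23 and D2.OR libraries 5959 to 9962, so the size of the fitted change depends on the prior count. The log2 fold change was 10.89 (SE 0.51, edgeR adjusted p = 7.04e-07) in 2D and 9.63 (SE 0.46, adjusted p = 8.41e-07) in 3D. Slc38a2 (SNAT2, chr15:96687394-96699698, minus strand), which carries the same kind of substrate and lies 44.5 kb from Slc38a1, was at 152, 155 and 161 TPM in D2A1 2D, 133, 118 and 144 in D2A1 3D, 125, 145 and 161 in D2.OR 2D, and 147, 135 and 154 in D2.OR 3D. All 4 groups overlapped for Slc38a2 apart from D2A1 2D and D2A1 3D, and the difference between lines was 0.00 on the log2 scale in 2D (95% interval -0.19 to 0.20, adjusted p = 0.969). Slc38a1 therefore made up 19.0% ± 1.2 of the summed TPM of Slc38a1, Slc38a2 and Slc38a4 (system A) in D2.OR 2D and 16.8% ± 2.5 in D2.OR 3D, against 0.013% ± 0.012 and 0.028% ± 0.029 in D2A1 (SD, n = 3). Slc38a4, the last of this cluster, had at most 22 counts in a library.

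The other Slc38a genes differed less. Slc38a3 (SNAT3), a glutamine carrier of liver and kidney, was under 0.5 TPM, with at most 3 counts in each D2A1 library and 6 to 30 in D2.OR. Against a floor of 3 counts per library its level in D2.OR was at least 6.86-fold higher in 2D and at least 5.83-fold higher in 3D (edgeR adjusted p = 0.00178 and 0.00422), and the call in 3D was lost without replicate 3 and in a fit of the 3D libraries alone. The lysosomal carriers Slc38a7, a glutamine exporter, and Slc38a9, the arginine sensor of mTORC1, were called higher in D2.OR in neither culture. For Slc38a7 the log2 fold change between lines was -0.38 in 2D (adjusted p = 0.0697) and 0.21 in 3D (adjusted p = 0.277), and for Slc38a9 it was 0.09 in 3D (adjusted p = 0.657). Slc38a9 was at 4.73, 4.05 and 4.54 TPM in D2A1 2D and 4.09, 3.87 and 2.66 in D2.OR 2D, with a log2 fold change of -0.52 (SE 0.16, adjusted p = 0.0225) that did not pass on TPM with limma, with the 2D libraries alone (0.104), without replicate 2 (0.165) or replicate 3 (0.231), or without either of these in 1 line of the 2D cultures alone (0.0619 to 0.109). Slc38a10, of unsettled transport role, was at 75.5, 77.7 and 87.6 TPM in D2A1 2D and 80.9, 102 and 102 in D2.OR 2D, and in 3D at 74.1, 104 and 95.2 in D2A1 and 97.0, 114 and 115 in D2.OR. The lines overlapped in both cultures. The 2D log2 fold change was 0.40 (SE 0.11, adjusted p = 0.0144), and that call was lost without replicate 2 (0.149) or replicate 3 (0.121), and without replicate 2 of D2A1 2D (0.0615) or of D2.OR 2D (0.0523) alone. It was also lost without the batch block (0.0574), with library totals in place of TMM (0.0888) and on TPM with limma (0.0534 and 0.058). Slc38a6 was called in neither culture, and Slc38a5, Slc38a8 and Slc38a11 had at most 3 counts in a library.

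All 3 Slc43a genes were higher in D2.OR in both cultures. Slc43a1 (LAT3, chr2:84838850-84863594, plus strand) was at 0.03, 0 and 0 TPM in D2A1 2D and at 20.2, 28.1 and 21.5 in D2.OR 2D, and in 3D at 0.01, 0 and 0.01 TPM in D2A1 and 9.26, 13.1 and 13.1 in D2.OR. No D2A1 library held more than 2 counts. Against a floor of 3 counts per library its level in D2.OR was at least 443-fold higher in 2D and at least 289-fold higher in 3D (edgeR adjusted p = 6.79e-07 and 9.75e-07). Slc43a2 (LAT4), on another chromosome, was detected in both lines, at 1.90, 2.44 and 3.44 TPM in D2A1 2D against 12.3, 12.8 and 10.1 in D2.OR 2D, and at 4.32, 7.35 and 4.02 in D2A1 3D against 7.81, 17.1 and 27.0 in D2.OR 3D. Its log2 fold change was 2.63 (SE 0.39, adjusted p = 0.000541) in 2D and 1.61 (SE 0.37, adjusted p = 0.00558) in 3D, and the call in 3D was lost without replicate 2 (adjusted p = 0.0568). Slc43a3 (chr2:84936579-84958509, plus strand), a carrier of purine nucleobases by its known role, was at 0.96, 6.81 and 5.47 TPM in D2.OR 2D and 0.11, 2.70 and 2.38 in D2.OR 3D, against at most 0.04 TPM in D2A1. In 2D its level in D2.OR was at least 111-fold higher (adjusted p = 2.52e-05), in 3D the fitted log2 fold change was 6.13 (SE 0.69, adjusted p = 0.000106) on 1, 4 and 1 counts in D2A1, a size that depends on the prior count and a call not made in a fit of the 3D libraries alone, and D2.OR replicate 1 was the lowest library in each culture.

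Slc43a1 and Slc43a3 lie 73.0 kb apart on chromosome 2, with the receptor gene Rtn4rl2 between them. Rtn4rl2 was at a mean of 0.31 TPM in D2A1 2D and 118 in D2.OR 2D (log2 fold change 9.15, SE 0.37, edgeR adjusted p = 3.18e-07), and at 0.33 and 54.2 TPM in 3D (7.33, SE 0.33, adjusted p = 6.75e-07). The pattern did not extend evenly along the chromosome. Timm10, the nearest gene before Slc43a1, did not pass (2D, -0.17, SE 0.21, adjusted p = 0.532), nor did Ssrp1 (0.07, SE 0.16, adjusted p = 0.759), while Serping1, the C1 inhibitor gene, was higher in D2.OR (7.89, SE 0.47, adjusted p = 2.73e-06) and P2rx3 lower (-1.47, SE 0.37, adjusted p = 0.00998, not passing in 3D at 0.122). Ube2l6 (1.304, adjusted p = 0.00954) and Tnks1bp1 (0.90, adjusted p = 0.000129) were higher in D2.OR by much less, and were so in 3D too (0.95, adjusted p = 0.0377, and 0.85, adjusted p = 0.000157). Copy number and chromatin at this locus were not measured.

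**Figure D4:**
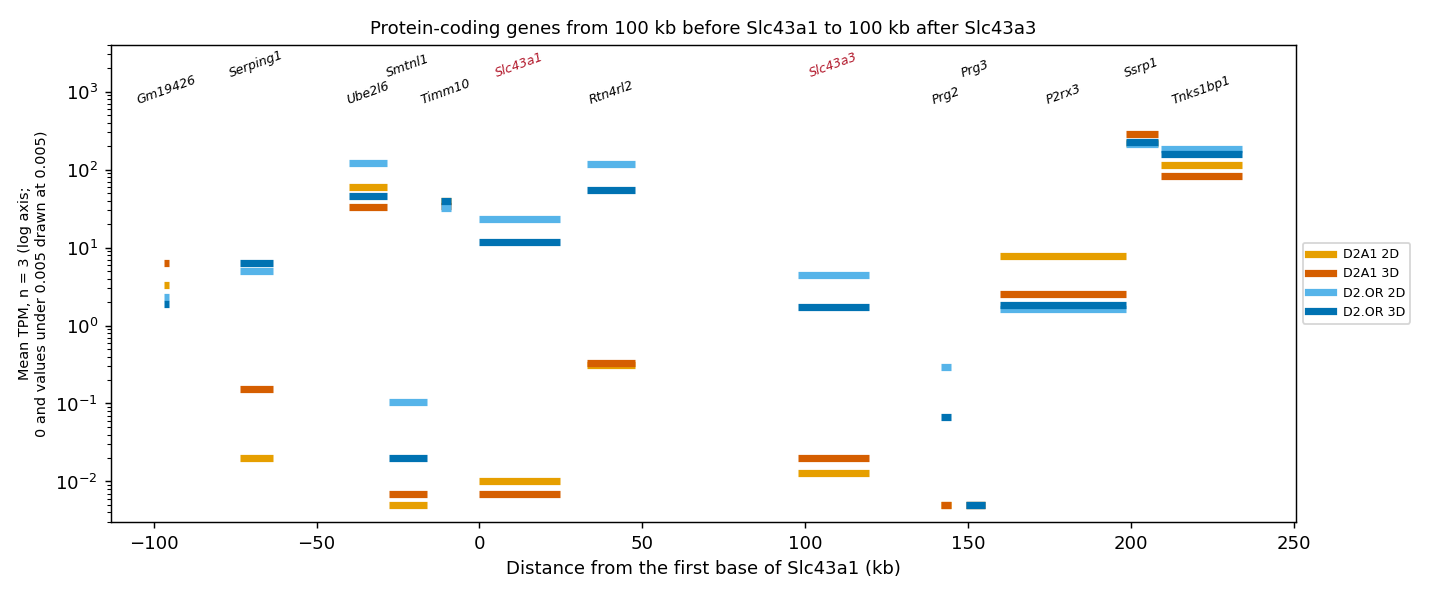
Mean TPM (log axis, n = 3) of the protein-coding genes around Slc43a1 and Slc43a3, each drawn as bars over its extent in kb from the first base of Slc43a1, with 1 color per group. Slc43a1, Rtn4rl2 and Slc43a3 are separated by line, with D2.OR above D2A1, whereas the bars of Timm10 and Ssrp1 lie close together.

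In the Slc36a family, Slc36a4 and Slc36a1 differed between the lines in opposite directions. Slc36a4 (PAT4, chr9:15709738-15743361, plus strand), a carrier of proline and tryptophan, was at 9.51, 9.36 and 11.1 TPM in D2A1 2D and 0.70, 1.54 and 1.37 in D2.OR 2D, and in 3D at 7.95, 10.7 and 9.60 in D2A1 and 1.52, 1.43 and 1.25 in D2.OR. The lines did not overlap, with log2 fold changes of -3.12 (SE 0.20, edgeR adjusted p = 4.27e-06) in 2D and -2.92 (SE 0.20, adjusted p = 5.45e-06) in 3D. Slc36a1 (PAT1), which releases small amino acids from lysosomes, was at 12.8, 9.36 and 12.1 TPM in D2A1 2D and 18.4, 15.1 and 15.3 in D2.OR 2D, and in 3D at 12, 8.52 and 9.11 in D2A1 and 18.1, 12.7 and 13.5 in D2.OR. Its differences were small but separated the lines, with log2 fold changes of 0.62 (SE 0.09, adjusted p = 0.000488) and 0.54 (SE 0.09, adjusted p = 0.00099).

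Slc36a2 (PAT2), which lies 19.3 kb from Slc36a1 and is known from kidney and from brown fat cells, was near 0 except in part of D2.OR 3D. It was at 0.04, 0.27 and 0.03 TPM in D2.OR 2D and at 0.05, 6.17 and 3.09 in D2.OR 3D, against at most 0.04 in D2A1. In 3D the difference between lines passed (fitted log2 fold change 5.94, SE 1.20, edgeR adjusted p = 0.00277, on 2, 4 and 3 counts in D2A1), but D2.OR 3D replicate 1 was near the D2A1 levels. The call was lost without replicate 3 (adjusted p = 0.0561), and without replicate 2 or in a fit of the 3D libraries alone the gene did not pass the filter. The summed TPM of the 3 adipocyte markers Adipoq, Plin1 and Lpl was 138, 723 and 418 in D2.OR 3D replicates 1, 2 and 3, 86.8 to 118 in D2.OR 2D and at most 1.08 in D2A1. Lpl was at a mean of at least 1 TPM in both D2.OR groups and Plin1 in D2.OR 3D, Adipoq was under that level in all groups, and the part of these markers in the Slc36a2 values was not tested.

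**Figure D5:**
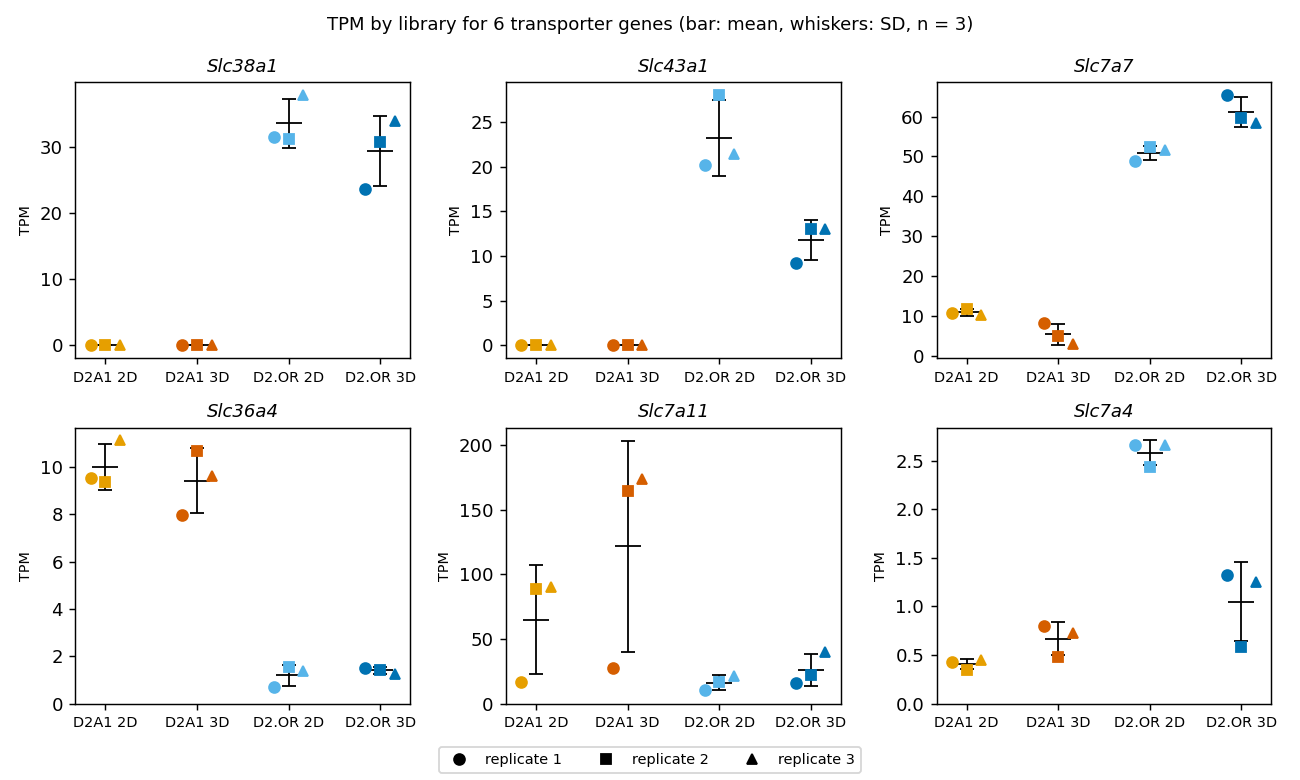
TPM by library of Slc38a1, Slc43a1, Slc7a7, Slc36a4, Slc7a11 and Slc7a4 on linear axes, with the bar at the mean and whiskers at 1 SD (n = 3). Slc38a1, Slc43a1 and Slc7a7 are higher in all D2.OR libraries, Slc36a4 is higher in all D2A1 libraries, and Slc7a11 varies between replicate 1 and the other two in D2A1.

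The Slc1a family held 2 abundant neutral carriers. Slc1a5 (ASCT2), a glutamine exchanger, was at 63.0, 75.0 and 56.7 TPM in D2A1 2D, 70.7, 77.4 and 86.3 in D2A1 3D, 69.9, 68.5 and 83.3 in D2.OR 2D, and 71.3, 138 and 98.5 in D2.OR 3D. The lines overlapped in both cultures (2D, log2 fold change 0.31, 95% interval -0.13 to 0.75, edgeR adjusted p = 0.216). Slc1a4 (ASCT1), a serine and alanine exchanger, was at 35.2, 43.3 and 30.6 TPM in D2A1 2D, 36.4, 17.9 and 21 in D2A1 3D, 52.2, 29.2 and 26.4 in D2.OR 2D, and 81.9, 35.8 and 26.9 in D2.OR 3D. The lines overlap in both cultures, although in 3D D2.OR was the higher line in each batch (1.15, 0.96 and 0.33 on the log2 scale), and the fitted change was 0.83 (SE 0.25, adjusted p = 0.02). That call was lost without the batch block (adjusted p = 0.0858), without replicate 2 (0.0967), without replicate 3 (0.0534) and without D2A1 3D replicate 1, D2A1 3D replicate 2 or D2.OR 3D replicate 1. The glutamate carriers Slc1a1, Slc1a2, Slc1a3, Slc1a6 and Slc1a7 stayed under a mean of 1 TPM in every group. Of these, Slc1a2 was called lower in D2.OR 2D (-1.75, SE 0.60, adjusted p = 0.0362) on 6 to 32 counts per library, and did not pass on TPM with limma, without the batch block, or without replicate 1 or replicate 3. It was also lost without any of 7 single libraries, namely D2A1 2D replicate 2 or 3, D2A1 3D replicate 3, D2.OR 2D replicate 1 or 3, and D2.OR 3D replicate 2 or 3.

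The effect of 3D culture was tested within each line against 2D, and both tests share the fit and the 2D libraries with the comparisons of the lines. In D2A1, 2 of the 28 genes were called, both lower in 3D, against a background of 3.48% of all tested genes (1.37% higher and 2.12% lower). These were Slc7a7 (log2 fold change -1.07, SE 0.24, edgeR adjusted p = 0.0489) and the lysosomal glutamine exporter Slc38a7 (-0.72, SE 0.16, adjusted p = 0.0472). Slc38a7 was at 37.1, 36.3 and 34.5 TPM in D2A1 2D and 31.9, 16.3 and 17.2 in D2A1 3D, and at 35.2, 23.2 and 25.4 in D2.OR 2D and 38.6, 22.2 and 21 in D2.OR 3D. The D2A1 groups did not overlap, and replicate 1 was the highest library in 3D. Both calls lay near the threshold and were lost without the batch block (adjusted p = 0.0768 for Slc7a7 and 0.18 for Slc38a7), without replicate 2 or replicate 3, and in 10 of the 12 fits that left out 1 library. The fit without the block called 0.309% of all genes. Those without replicate 2 or replicate 3 called no gene at all, and the 10 fits called 0% to 2.71%. Without replicate 1, 11 of the 28 were called in D2A1, among them Slc7a11, Slc7a5, Slc3a2 and Slc1a4, in a fit that called 36.3% of all genes. With all libraries Slc7a11 was higher in 3D in each batch (0.77, 1.03 and 1.09 on the log2 scale) but did not pass (0.997, SE 0.40, adjusted p = 0.126).

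In D2.OR, 1 of the 28 genes was called, against a background of 1.62% (0.838% higher and 0.785% lower). Slc7a4 fell by 1.65 on the log2 scale in 3D (SE 0.21, edgeR adjusted p = 0.0116), and its 2D and 3D levels did not overlap. The call was lost without the batch block (adjusted p = 0.0549) and without replicate 2 (0.481) or replicate 3 (0.297), and it was also lost without either replicate in D2.OR 2D or D2.OR 3D alone (0.0728 to 0.0902). These fits called 0% to 0.18% of all genes. Slc36a2 (4.31, SE 1.07, adjusted p = 0.0886), Slc43a3 (-1.75, SE 0.44, adjusted p = 0.0929) and Slc43a1 (-0.997, SE 0.27, adjusted p = 0.104) did not pass, although the 3 D2.OR 3D libraries of Slc43a1 all lay below the 3 in 2D. Each of these genes passed with DESeq2 and without replicate 1. Slc43a1 also passed with limma on log2(TPM + 1), with the D2.OR libraries alone and without D2A1 2D replicate 1. Slc36a2 also passed without a filter and without replicate 1 of D2A1 2D or of D2.OR 3D. Slc38a1, Slc7a7, Slc36a4 and Slc38a2 were within 0.25 of 0 on the log2 scale, with adjusted p from 0.543 to 0.889.

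Whether the lines responded differently to 3D was tested by the interaction of line and culture. No transporter gene was called (background 0.0238%, of which 0.0178% higher and 0.00594% lower), while 7 of the 28 had an unadjusted p under 0.05 in edgeR, as did 2997 of all 16823 genes. The likelihood-ratio test of DESeq2 called 2, with 5.96% of all genes called, and limma called none. Slc7a4 came nearest. It was higher in 3D in all D2A1 batches (0.60, 1.24 and 0.52 on the log2 scale) and lower in all D2.OR batches (-1.45, -1.67 and -1.77), and its interaction was -2.47 (SE 0.31, adjusted p = 0.0539). Slc7a7 followed with 1.20 (SE 0.33, adjusted p = 0.154) and Slc1a2 with 2.5 (SE 0.80, adjusted p = 0.179), the latter on low counts. In this edgeR test, then, a call between lines in 1 culture and not in the other is not shown to be a difference between cultures. For Slc7a4 and Slc7a7 the interaction passed under some alternatives, DESeq2 among them. For Slc1a4, Slc38a7 and Slc38a9 it passed without replicate 1 and without D2A1 2D replicate 1 alone. Those fits called 17.8% and 14.5% of all genes.

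Genes around the carriers were read from 6 lists. The counts stand beside a background over all tested genes of 25.4% higher and 24.4% lower in 2D, and 27.7% higher and 26.1% lower in 3D. No list was tested against this background, and nothing is read from a count above or below it. Of 21 other amino acid carriers tested, 5 were higher and 11 lower in D2.OR in 2D, and 7 higher and 6 lower in 3D. In 2D the aromatic amino acid carrier Slc16a10 (log2 fold change -3.31, SE 0.30, edgeR adjusted p = 3.32e-05), Slc6a17 (-3.15) and the taurine carrier Slc6a6 (1.61) had the smallest p. In D2A1 1 of the 21 was lower in 3D than in 2D, beside a background of 2.12% lower. Of 34 ATF4 response genes, 1 was higher and 12 were lower in 2D (median log2 fold change -0.35), and 4 were higher and 8 lower in 3D (median -0.08). The higher one in 2D was Nupr1 (1.86, adjusted p = 0.00044), and the lower ones included Phgdh, the entry enzyme of serine synthesis (-1.49, adjusted p = 6.52e-05), and the tRNA synthetase gene Gars (-0.79, adjusted p = 0.000665). In 3D Nupr1 (2.24), Ddit3 (1.46), Chac1 (0.74) and Mars (0.36) were the higher ones. Among 13 NRF2 and glutathione genes, 5 were higher and 4 lower in each culture, led in 2D by glutathione reductase Gsr (2.69, adjusted p = 6.6e-06). In D2A1 3 of these 13 were higher in 3D than in 2D (background 1.37%), namely Gclm (1.06, adjusted p = 0.00955), Gsr (0.84, adjusted p = 0.0453) and Nqo1 (1.55, adjusted p = 0.0453). These 3 calls were lost without replicate 2 and without replicate 3, where this comparison called no gene at all.

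Of 30 genes of amino acid sensing by mTORC1, 2 were higher and 17 lower in D2.OR in 2D, and 3 higher and 13 lower in 3D. The lower genes included Tsc1, a brake on mTORC1 (2D, -0.98, edgeR adjusted p = 5.51e-05), the Ragulator subunit Lamtor2 (-0.92, adjusted p = 0.000106) and the GTPase Rraga (-0.74, adjusted p = 0.000131), so both activating and inhibiting members were lower. The median log2 fold change of the list was -0.62 in 2D, beside 0.00 for all tested genes. In D2A1 5 of the 30 were lower in 3D than in 2D, with Mtor (-1.27, adjusted p = 0.0193), Flcn (-0.80, adjusted p = 0.0404) and Sesn3 (-1.07, adjusted p = 0.0442) at the smallest p, beside a background of 2.12% lower. All 5 calls were lost without replicate 2 and without replicate 3, as well as without replicate 2 of D2A1 2D or replicate 2 or 3 of D2A1 3D alone. In those fits this comparison called no gene at all. Of 19 enzymes of glutamine, arginine and branched-chain amino acids, 4 were higher and 7 lower in 2D, and 8 higher and 9 lower in 3D. The lower ones in 2D included the mitochondrial aspartate aminotransferase Got2 (-0.88, adjusted p = 0.000149), Dbt of branched-chain breakdown (-0.94, adjusted p = 0.000375) and the urea cycle lyase Asl (-0.86, adjusted p = 0.000427). In D2A1 1 of the 19 was higher in 3D than in 2D, beside a background of 1.37% higher. Of 9 regulators of the carriers, 7 were higher and none lower in 2D, and 5 higher and none lower in 3D. Those higher in 2D included the transcript of Trp53 (6.80, SE 0.21, adjusted p = 6.77e-08), Bsg, a surface chaperone of carriers (0.77, adjusted p = 0.000135), and Cd44, whose product holds xCT at the membrane (1.25, adjusted p = 0.000345). RNA does not measure p53 protein. The paper could not detect that protein in either line and proposes that neither holds functional p53. The Trp53 transcript is therefore not read as p53 activity. No gene of these lists was called between 3D and 2D in D2.OR or in the interaction.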

How the data were processed

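Libraries were grouped by their labels into the 4 combinations of line and culture. Per the submitters' notes and methods, the authors used Trimmomatic 0.32, STAR 2.5.3 and RSEM 1.3.0 on GRCm38 (GENCODE M15). They deposited an expected count per gene, not normalized, and a TPM scaled for gene length and library size. RSEM divides reads that fit several genes, so 10.7% to 11.8% of the values were not whole. Expected counts were rounded and tested with edgeR 4.0.16 in R 4.3.3 (quasi-likelihood test, TMM, filter on low counts, 4 group terms and a batch block), with Benjamini-Hochberg adjustment over 16823 genes at 0.05. The common biological coefficient of variation was 21.2%. Same-numbered libraries deviated together (r of 0.0758 to 0.511, median 0.267, over 18 pairs), and the labels give the number as the batch. Within-batch values use a prior count of 2. The script was tested on simulated data. Alternatives used DESeq2 1.42.0, limma 3.58.1 on log2(TPM + 1) or log2(TPM + 0.1), other scalings and filters, and left-out libraries. All 42 genes are accounted for by role. Values in every library are given for called genes with a mean of at least 10 TPM in a group and for Slc3a2, Slc7a5, Slc7a11, Slc1a5, Slc38a2 and Slc7a1, full statistics for up to 15 called genes per comparison (largest change first, at least 1 CPM in a group) or the 3 of smallest p where fewer than 3 were called, and up to 3 genes of smallest p per list. Other genes and libraries named, including those under 10 TPM and those around Slc43a1, were chosen after their values were seen. The genes and lists were chosen with earlier results of these data known. Promoter windows came from RefSeq.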

Additional observations from a re-analysis of the deposited data

Results flagged for a closer look

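The response to 3D ran in opposite directions in the 2 lines, batch by batch, for 5 of the genes, of which Slc7a4 and Slc7a7 had at least 10 counts in every library. The share of all tested genes with this pattern was not computed, so nothing is read from the count. Slc7a4 was higher in 3D in all 3 batches of D2A1 (log2 differences of 0.60, 1.24 and 0.52) and lower in all 3 of D2.OR (-1.45, -1.67 and -1.77), so that the mean over batches of the D2.OR response minus the D2A1 response was -2.41. The edgeR interaction was -2.47 and did not pass (adjusted p = 0.0539). Over the alternatives it passed with DESeq2 (adjusted p = 7.51e-09), without a filter on low counts (0.0181), with at least 10 counts in every library (0.0419) and without replicate 1 (0.0074), and also without replicate 1 of D2A1 2D (0.00578), D2A1 3D (0.0109) or D2.OR 3D (0.0462) alone. It did not pass without replicate 2 (0.847) or replicate 3 (0.642). The gene is near 1 TPM, with 21 to 270 counts per library. Slc7a7 was lower in 3D in all batches of D2A1 (-0.42, -1.29 and -1.66) and slightly higher in all batches of D2.OR (0.27, 0.05 and 0.09), a mean difference between the responses of 1.26. Its edgeR interaction of 1.20 did not pass (adjusted p = 0.154), but passed with DESeq2 (adjusted p = 0.0209), without replicate 1 (0.00484) and without replicate 1 of D2A1 2D (0.0478) or D2A1 3D (0.00671) alone. It did not pass without replicate 2 (0.847) or replicate 3 (0.67). The other 3 rest on low counts in at least some libraries. In D2A1 no library held more than 4 counts of Slc43a3 or 23 of Slc38a1, so the sign of their D2A1 response rests on few counts. The log2 differences by batch were, for Slc3a1, -0.32, -1.21 and -0.02 in D2A1 and 0.99, 0.64 and 0.25 in D2.OR. For Slc38a1 they were 1.04, 0.21 and 0.50 in D2A1 and -0.54, -0.05 and -0.16 in D2.OR. For Slc43a3 they were 0.52, 0.21 and 0.53 in D2A1 and -3.06, -1.36 and -1.19 in D2.OR. None of the 5 passed in the edgeR test of all libraries.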

How the results depend on the processing

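Of the 14 genes called between lines in 2D, 9 kept their call under all 23 alternatives other than the filter of 10 counts in every library, which removes genes near 0 in D2A1. A call counts as lost where the gene failed the filter of that fit. The others were Slc1a2, Slc7a6, Slc7a11, Slc38a9 and Slc38a10. In 3D, 6 of 13 kept it (Slc3a1, Slc7a7, Slc36a1, Slc36a4, Slc38a1 and Slc43a1). No call between 3D and 2D survived them all. None could have, because without replicate 2 this comparison called 0% of all genes in either line. Without replicate 3 it called 0% in D2A1 and 0.00589% in D2.OR. With at least 10 counts in every library, 9 transporter genes were called between lines in 2D (50.8% of all genes tested), 8 in 3D (54.9%) and 1 in the interaction (0.0231%). Leaving out a replicate or a library gave 10 to 17 genes in 2D, with 24.9% to 53.8% of all genes called. In 3D it gave 8 to 15 (8 without replicate 3), with 31% to 59.5% of all genes called. For 3D against 2D in D2A1 it gave 0 to 11. There, 11 were called without replicate 1 and 8 without D2A1 2D replicate 1, where 36.3% and 30.3% of all genes were called. In D2.OR it gave 0 to 4 (4 without replicate 1, with 8.38% of all genes called). In the interaction it gave 0 to 5. The 5 came without replicate 1 or without D2A1 2D replicate 1 alone, with 17.8% and 14.5% of all genes called. Without the replicate block, 11 genes were called between lines in 2D (43.9% of all genes) and 12 in 3D (47.8%). It gave 0 in D2A1 (0.309%), in D2.OR (0.119%) and in the interaction (0%). For 3D against 2D in D2A1, where 2 genes were called, DESeq2 called 5 (23.1% of the genes it tested). Library totals in place of TMM called 0 (2.97%), and the libraries of the compared groups alone 0 (0.0981%). In D2.OR, where 1 was called, DESeq2 called 4 (7.26%), no filter 2 (1.39%), limma on log2(TPM + 1) 2 (1.69%) and the compared groups alone 2 (5.16%). In the interaction, where 0 were called, DESeq2 called 2 (5.96%) and no filter 1 (0.322%). The alternatives were recomputed for called genes of at least 1 CPM and for the genes of smallest p, and none of these values changed direction. For the others, such as Slc3a2 and Slc7a5, calls were recomputed but directions were not compared. The cause of these shifts was not tested. At this depth a gene whose group has no library above 3 counts gives a lower bound, and the fitted change of such a gene, or of one just above that floor, depends on the prior count.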
